A study of Mus musculus with 6 samples.

Results

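The mucin genes Muc1, Muc4, Muc5ac, Muc5b, Muc6, Muc13, Muc16 and Muc20 were followed in RNA of sorted tumour cells. They were chosen by name, were matched to Ensembl identifiers in the deposited table, and are 8 of its 25978 genes. The cells came from primary pancreatic tumours of KPCY mice on a C57BL/6 background, 5 to 7 weeks old. Pdx1-Cre, Trp53 fl/fl and the Rosa26LSL-YFP reporter were carried in both groups alike. YFP-positive cells were sorted by surface EpCAM, an adhesion protein of epithelial cells, into 3 EpCAM- and 3 EpCAM+ libraries, given by the design text as biological replicates. Pdx1 is active in the early pancreas, so Pdx1-Cre marks the descendants of normal exocrine and endocrine progenitors as well as tumour cells. The labels do not state if tumours were pooled or if same-numbered libraries shared a tumour.

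Mucins are large proteins whose serine- and threonine-rich repeats carry dense O-linked glycans. Gel-forming mucins, here Muc5ac, Muc5b and Muc6, are secreted and cross-linked through cysteine-rich domains into mucus. Cell-surface mucins, here Muc1, Muc4, Muc13, Muc16 and Muc20, are held in the apical membrane, where they form a protective coat and take part in signalling and adhesion. In the pancreas, duct epithelium normally makes Muc1 and Muc6, and precursor lesions of pancreatic cancer take on gastric-type mucins such as Muc5ac.

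The values are deposited log2 levels that the authors had normalised between libraries, and the transform they used is not given. The sequencing depth is therefore unknown. Epcam itself checked the sort, at 8.42, 8.22 and 7.22 (log2) in EpCAM- replicates 1, 2 and 3, against 15.06, 14.90 and 14.89 in EpCAM+ replicates 1, 2 and 3. Back-transformed, the Epcam level in EpCAM- cells was 0.782% of that in EpCAM+ cells. By the call rule given below, all 10 epithelial markers were lower in EpCAM- cells, where 23.1% of all tested genes were lower. Of 10 fibroblast markers 9 were higher, where 20.3% of all tested genes were higher. The summed back-transformed level of the fibroblast markers was 129287, 173848 and 38980 in EpCAM- replicates 1, 2 and 3, against 14447, 1389 and 1684 in EpCAM+ replicates 1, 2 and 3. EpCAM+ replicate 1 thus stood above the other EpCAM+ libraries in these markers, and EpCAM- replicate 3 below the other EpCAM- libraries. The summed macrophage markers were 345, 533 and 313 in EpCAM- replicates and 4410, 962 and 1710 in EpCAM+ replicates, again highest in EpCAM+ replicate 1.

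Muc1, Muc4, Muc5ac, Muc6, Muc13 and Muc20 fell in EpCAM- cells, and Muc5b and Muc16 did not pass the test. Muc4, Muc20, Muc1 and Muc6 fell most, by between 5.77 and 6.20 on the log2 scale, which left between 1.36% and 1.84% of the EpCAM+ level. The call rule was an adjusted p under 0.05 in limma (Benjamini-Hochberg) across 15783 genes, those averaging 10 or more after back-transformation. It called 43.4% of them in either direction. By that rule 6 of the 8 mucins were lower in EpCAM- cells, where 23.1% of all tested genes were lower. None was higher, where 20.3% of all tested genes were, and at an unadjusted p under 0.05 the limma fit still called 0 higher. The groups did not overlap for the 6 mucins that fell, and for 29.2% of all tested genes the groups likewise did not overlap with EpCAM- lower. No mucin had groups apart with EpCAM- higher, which 27.1% of all tested genes had. The median log2 fold change was -5.03 over the 8 mucins and 0.0043 over all tested genes. Muc13 passed the filter on low values only through its EpCAM+ libraries, so these counts and the median are a description. The design text calls the libraries biological replicates, but nothing states that they were separate mice. The p-values therefore measure library-to-library spread, and how much of it lies between mice is unknown. In bulk RNA, fewer cells with a transcript and less transcript per cell cannot be told apart.

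**Figure D1:**
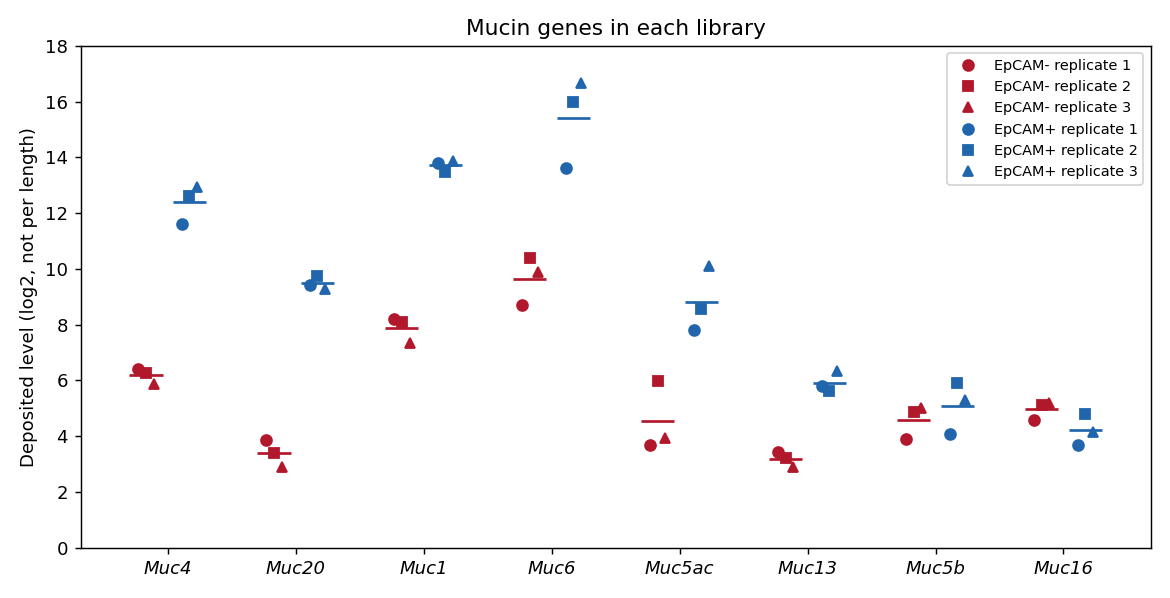
Deposited log2 level (y axis, not divided by gene length) of each mucin gene (x axis) in the 3 EpCAM- libraries (red, left) and the 3 EpCAM+ libraries (blue, right), with horizontal lines at the group means and symbols for the replicate number. The groups are apart for Muc4, Muc20, Muc1, Muc6, Muc5ac and Muc13 and overlap for Muc5b and Muc16, and EpCAM+ replicate 1 (circle) is the lowest EpCAM+ library for Muc4, Muc6, Muc5ac, Muc5b and Muc16.

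Among the cell-surface mucins, Muc1 (ENSMUSG00000042784, GRCm38 chromosome 3, 89229057 to 89233381, plus strand) is the broadly expressed mucin of glandular epithelium, whose cytoplasmic tail binds signalling proteins. Muc1 was measured at 8.22, 8.09 and 7.33 (log2) in EpCAM- replicates 1, 2 and 3, against 13.78, 13.47 and 13.89 in EpCAM+ replicates 1, 2 and 3. The EpCAM+ libraries lay within 0.41 of each other and far above every EpCAM- library. The mean for Muc1 was 7.88 ± 0.48 across EpCAM- libraries and 13.71 ± 0.21 across EpCAM+ libraries (SD, n = 3 each), a log2 fold change of -5.83 ± 0.24 (SE, limma adjusted p = 7.38e-06). Its decrease ranked 121 among all tested genes.

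Muc4 (ENSMUSG00000079620, chromosome 16, 32735886 to 32782391, plus strand) encodes a very large membrane mucin that binds the receptor ErbB2, as first shown in rat. Log2 values of Muc4 were 6.42, 6.27 and 5.86 in EpCAM- replicates 1, 2 and 3, against 11.61, 12.60 and 12.96 in EpCAM+ replicates 1, 2 and 3. EpCAM+ replicate 1 was the lowest of its group and still above every EpCAM- library. The log2 fold change was -6.20 ± 0.34 (SE, limma adjusted p = 1.97e-05), ranked 64 of all tested genes. The order of Muc4, Muc20 and Muc6 by size of decrease changed with the library left out.

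Muc20 (ENSMUSG00000035638, chromosome 16, 32777419 to 32797435, minus strand) encodes a membrane mucin whose human counterpart binds the receptor MET. Muc20 was measured at 3.88, 3.40 and 2.88 (log2) in EpCAM- replicates 1, 2 and 3, against 9.42, 9.74 and 9.29 in EpCAM+ replicates 1, 2 and 3, again with no overlap. It fell by 6.10 on the log2 scale (SE 0.29, limma adjusted p = 1.09e-05). Muc20 and Muc4 run towards each other and overlap by 4.97 kb, exons included. No source used here says if reads were counted by strand, so reads of that overlap cannot be assigned to either gene with certainty. Between EpCAM+ libraries the SD was 0.70 for Muc4 and 0.23 for Muc20.

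Muc13 (ENSMUSG00000022824, chromosome 16, 33794037 to 33819934, plus strand) encodes a small membrane mucin of the gastrointestinal epithelium. For Muc13 the log2 levels were 3.44, 3.21 and 2.88 in EpCAM- replicates 1, 2 and 3, against 5.79, 5.61 and 6.34 in EpCAM+ replicates 1, 2 and 3. The groups did not overlap, but both were low. The log2 fold change was -2.74 ± 0.27 (SE, limma adjusted p = 0.000272), a level 6.67-fold lower in EpCAM- libraries. Whether the transform of the authors shrinks differences at such low levels was not tested. The antisense gene Gm15657, whose exons overlap those of Muc13, lay near the lowest values in the table, from -1.51 to -1.45 in EpCAM- and likewise from -1.51 to -1.45 in EpCAM+ libraries.

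Muc16 (ENSMUSG00000109564, chromosome 9, 18495455 to 18674530, minus strand) encodes the largest membrane mucin, made by mesothelium and several wet epithelia, which binds mesothelin in human. It was the only member with a higher mean in EpCAM- libraries. Muc16 stood at 4.58, 5.12 and 5.18 (log2) in EpCAM- replicates 1, 2 and 3, against 3.69, 4.80 and 4.15 in EpCAM+ replicates 1, 2 and 3. EpCAM+ replicate 2 lay above EpCAM- replicate 1, so the groups overlapped. With 0.75 ± 0.33 (SE) as log2 fold change, Muc16 missed the limma threshold (adjusted p = 0.110). It passed without EpCAM+ replicate 2 (1.04, adjusted p = 0.0409) and after quantile normalisation (1.05, adjusted p = 0.0368), which by itself moved the median of all tested genes upward by 0.13. Over all alternatives its adjusted p ran from 0.0368 to 1.00.

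As Muc16 also marks mesothelial cells, the mesothelial markers are given beside it. Of 8 listed markers, 2 were tested, Msln and Bnc1, and neither passed in limma. The summed back-transformed level of all 8 was between 2872 and 9650 in EpCAM- and between 10930 and 17003 in EpCAM+ libraries, nearly all of it Msln. Upk3b, a defining mesothelial marker, was at 0.55 to 0.79 (log2) in EpCAM- and at 0.64 to 0.79 in EpCAM+ libraries, and Lrrn4 was at 1.78 to 2.67 in EpCAM- and at 1.78 to 2.36 in EpCAM+ libraries. Both are low in every library. Upk1b was at 3.41, 3.88 and 3.11 in EpCAM- replicates 1, 2 and 3, against 2.69, 2.64 and 3.01 in EpCAM+ replicates 1, 2 and 3, so its groups were apart with EpCAM- higher, at levels too low to be tested. Bnc1 was at 4.56, 5.55 and 4.76 in EpCAM- replicates 1, 2 and 3, against 3.29, 4.82 and 3.29 in EpCAM+ replicates 1, 2 and 3, and missed the limma threshold (log2 fold change 1.16, adjusted p = 0.0923). Wt1 was at 2.40 to 4.49 in EpCAM- and at 1.95 to 2.86 in EpCAM+ libraries, with overlap. Bnc1, Upk1b, Wt1 and Lrrn4 thus had higher means in EpCAM- libraries, as Muc16 did, though Lrrn4 only by a little (2.19 against 2.05). The mean of Upk3b was 0.69 in both groups. Nkain4 (mean 1.46 in EpCAM- and 1.88 in EpCAM+, groups apart) and Gpm6a (2.21 and 2.55, with overlap) had lower means in EpCAM- libraries. Both were too low to be tested. The part of these markers in the Muc16 values was not tested. Mesothelin (Msln) itself was at 13.23, 11.45 and 12.97 in EpCAM- replicates 1, 2 and 3, against 13.90, 14.05 and 13.41 in EpCAM+ replicates 1, 2 and 3. Every EpCAM+ library lay above every EpCAM- library, but Msln missed the limma threshold (adjusted p = 0.0634).

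Among the gel-forming mucins, Muc6 (ENSMUSG00000048191, chromosome 7, 141633456 to 141655319, minus strand) is the mucin of gastric gland mucous neck cells and of pancreatic ducts. Levels of Muc6 were 8.70, 10.38 and 9.89 (log2) in EpCAM- replicates 1, 2 and 3, against 13.61, 15.97 and 16.68 in EpCAM+ replicates 1, 2 and 3. Every EpCAM+ library lay above every EpCAM- library, although the EpCAM+ libraries were 3.08 log2 units apart. Replicate 1 was the lowest library in both groups. The log2 fold change was -5.77 ± 0.80 (SE, limma adjusted p = 0.00130). It was -6.67 without EpCAM+ replicate 1 and -5.13 without EpCAM+ replicate 3, each more than 1.5 times away on the linear scale, and it passed in both cases.

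The spread of Muc6 between EpCAM+ libraries was larger than that of 99.7% of tested genes, with an SD of 1.61 where the median SD was 0.163. The summed epithelial markers did not move with it, at 316300, 311523 and 304605 in EpCAM+ replicates 1, 2 and 3. The fibroblast and macrophage markers given above were highest in EpCAM+ replicate 1, the library with the lowest Muc6, and their part in that value was not tested. The summed acinar markers were 320, 360 and 384 in EpCAM- replicates 1, 2 and 3, against 95156, 47396 and 90354 in EpCAM+ replicates 1, 2 and 3, lowest in another EpCAM+ library than Muc6. The summed gastric pit and neck markers were 1021, 965 and 1189 in EpCAM- replicates 1, 2 and 3, against 33894, 36461 and 67598 in EpCAM+ replicates 1, 2 and 3. The summed gastric markers were therefore highest in EpCAM+ replicate 3, as were Muc1, Muc4, Muc5ac, Muc6 and Muc13. Muc20, Muc5b and Muc16 were highest in EpCAM+ replicate 2. Of the gastric markers, Cldn18 and Anxa10 were highest in EpCAM+ replicate 1 and the rest in EpCAM+ replicate 3. Summed goblet cell markers were 10179, 9276 and 13713 in EpCAM+ replicates 1, 2 and 3, so a peak in replicate 3 was not particular to gastric markers.

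Muc5ac (ENSMUSG00000037974, chromosome 7, 141788972 to 141819231, plus strand) is the mucin of gastric surface cells, and appears in precursor lesions of the pancreas. Muc5ac was measured at 3.68, 5.98 and 3.93 (log2) in EpCAM- replicates 1, 2 and 3, against 7.81, 8.56 and 10.09 in EpCAM+ replicates 1, 2 and 3. Both groups were widely spread and did not overlap, with EpCAM- replicate 2 about 2 log2 units above the other EpCAM- libraries. The log2 fold change was -4.29 ± 0.77 (SE, limma adjusted p = 0.00399). It was -5.01 without EpCAM- replicate 2 and -3.65 without EpCAM+ replicate 3, each a change of more than 1.5 times on the linear scale, and it passed in each case.

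Muc5b (ENSMUSG00000066108, chromosome 7, 141839070 to 141873084, plus strand) is a gel-forming mucin of airways and salivary glands. For Muc5b the log2 values were 3.89, 4.87 and 5.02 in EpCAM- replicates 1, 2 and 3, against 4.09, 5.89 and 5.31 in EpCAM+ replicates 1, 2 and 3. The groups overlapped, with EpCAM+ replicate 1 below EpCAM- replicates 2 and 3. With -0.50 ± 0.51 (SE) as log2 fold change, Muc5b missed the limma threshold (adjusted p = 0.464).

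**Figure D2:**
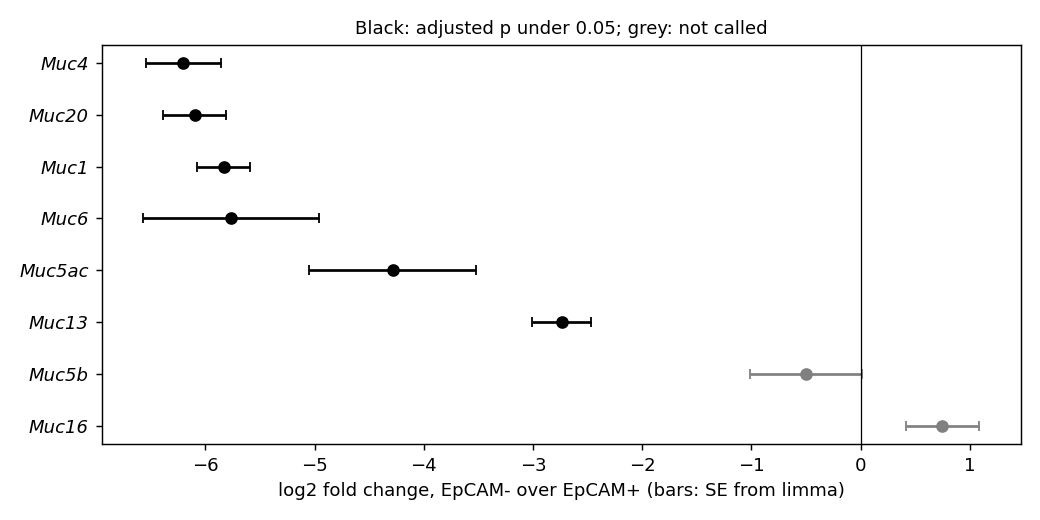
Log2 fold change of EpCAM- over EpCAM+ (x axis) with its standard error from limma for each mucin gene (y axis), in black where the adjusted p was under 0.05. Muc4, Muc20, Muc1 and Muc6 lie between -6.20 and -5.77 and Muc5b and Muc16 lie near 0, while the bars of Muc6 and Muc5ac are the widest.

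As a share of the back-transformed total, the 8 mucins together made up 0.00328%, 0.00681% and 0.00490% in EpCAM- replicates 1, 2 and 3, against 0.117%, 0.302% and 0.492% in EpCAM+ replicates 1, 2 and 3. Without Muc6 the shares were 0.00172%, 0.00186% and 0.00123% in EpCAM- replicates, against 0.0694%, 0.0685% and 0.0944% in EpCAM+ replicates. Most of the difference among EpCAM+ libraries thus came from Muc6.

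Levels of different mucins were compared per kb of exon, as the log2 level less the log2 of the exon length in kb, since exon lengths ran from 2.35 kb for Muc1 to 26.4 kb for Muc16. In EpCAM- libraries the order of mean levels per kb was Muc1 (6.65), Muc6 (6.43), Muc4 (2.63), Muc13 (1.57), Muc20 (1.38), Muc5ac (1.11), Muc5b (0.69) and Muc16 (0.24). There the ranges of neighbours overlapped except between Muc6 and Muc4 and between Muc4 and Muc13. In EpCAM+ libraries the order was Muc1 (12.48), Muc6 (12.19), Muc4 (8.83), Muc20 (7.47), Muc5ac (5.39), Muc13 (4.31), Muc5b (1.19) and Muc16 (-0.51). There the ranges overlapped only between Muc1 and Muc6 and between Muc5ac and Muc13. Muc1 and Muc6 were therefore the leading mucins per length in both groups. Muc20 stood above Muc13 in every EpCAM+ library, and the ranges of the pair overlapped in EpCAM- libraries.

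**Figure D3:**
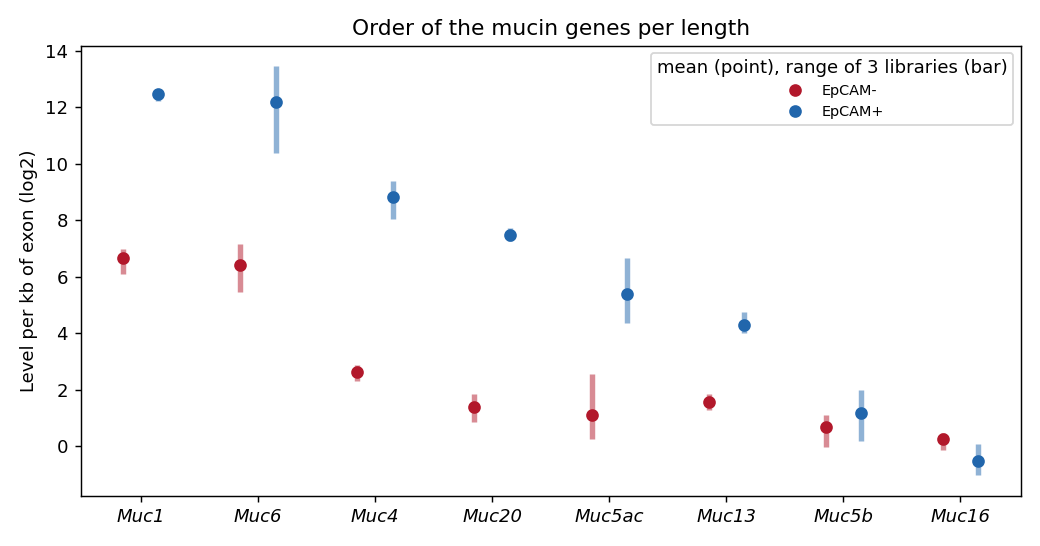
Log2 level per kb of exon (y axis) of the mucin genes (x axis, in the EpCAM+ order), with the mean as a point and the range of 3 libraries as a bar, for EpCAM- (red, left) and EpCAM+ (blue, right). Muc1 and Muc6 lead in both groups at 6.65 and 6.43 in EpCAM- and 12.48 and 12.19 in EpCAM+. In EpCAM- the mean levels of Muc20, Muc5ac, Muc13, Muc5b and Muc16 crowd together between 0.24 and 1.57.

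Sequences of 250 bases before the RefSeq start were found for 6 of the 8 members, 7 sequences in all since Muc13 has 2 starts. Muc5ac and Muc5b were not among them. The sequences of the 4 genes that fell most are shown 5′ to 3′ on the strand of the gene (RefSeq, GRCm38.p6), because these genes moved together. Capitals mark matches, on either strand, to CACCTG (the E-box word of Snail and Zeb repressors) or TGTTTAC (a forkhead word). The words GATAAG (of Gata6 and its relatives), AACCGGT (of grainyhead factors) and GGAAGT (of Ets factors) were searched as well, and no matches overlapped. The Muc6 start in RefSeq lies outside the GENCODE gene body used above. The sequence of Muc1 is chr3:89228806-89229055 (plus strand), of Muc20 chr16:32797436-32797685 (minus strand), of Muc4 chr16:32735636-32735885 (plus strand) and of Muc6 chr7:141655394-141655643 (minus strand).
Muc1: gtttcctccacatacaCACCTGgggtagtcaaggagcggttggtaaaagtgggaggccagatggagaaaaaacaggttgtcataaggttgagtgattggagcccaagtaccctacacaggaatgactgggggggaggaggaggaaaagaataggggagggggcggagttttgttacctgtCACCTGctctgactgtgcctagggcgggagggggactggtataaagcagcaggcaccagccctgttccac
Muc20: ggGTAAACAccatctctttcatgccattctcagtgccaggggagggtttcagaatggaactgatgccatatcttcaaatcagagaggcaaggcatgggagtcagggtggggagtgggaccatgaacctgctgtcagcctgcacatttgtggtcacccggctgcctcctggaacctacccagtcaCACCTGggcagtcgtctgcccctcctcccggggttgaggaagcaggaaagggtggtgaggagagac
Muc4: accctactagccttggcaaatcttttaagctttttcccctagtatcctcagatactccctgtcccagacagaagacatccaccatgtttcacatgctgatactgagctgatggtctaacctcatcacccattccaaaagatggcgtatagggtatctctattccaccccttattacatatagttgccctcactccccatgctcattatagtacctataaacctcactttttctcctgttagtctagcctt
Muc6: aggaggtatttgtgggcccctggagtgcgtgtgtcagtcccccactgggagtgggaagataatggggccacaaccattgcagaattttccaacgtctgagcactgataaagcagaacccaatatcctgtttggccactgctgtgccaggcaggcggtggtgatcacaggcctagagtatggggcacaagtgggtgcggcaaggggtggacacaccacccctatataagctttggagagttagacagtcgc
Muc1 held CACCTG at 234 and at 70 bases before its start. Muc20 held CACCTG at 66 bases and TGTTTAC, on the opposite strand, at 248 bases before its start. None of the 5 words was found in the sequences shown for Muc4 and Muc6, nor in those of Muc13 and Muc16. Among all 32851 promoter sequences in the table, cut to the same 250 bases, 17.2% held CACCTG, 3.17% TGTTTAC, 6.55% GATAAG, 0.831% AACCGGT and 19.7% GGAAGT. Of the 4 genes shown, 2 held a searched word and 2 did not. The share of all promoters that hold at least 1 of the 5 words was not computed, so this count has no background to be read against. The part of these words in the decreases was not tested.

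Position on the chromosome was compared next, through the other genes within 150 kb, a window set after the members' values had been seen. Muc6, Muc5ac and Muc5b lie in a group on chromosome 7, where Muc5ac starts 134 kb beyond Muc6 and Muc5b starts 19.8 kb beyond the end of Muc5ac. Between Muc6 and Muc5ac lies Muc2, the gel-forming mucin of intestinal goblet cells. Muc2 was at 2.79, 3.09 and 3.11 (log2) in EpCAM- replicates 1, 2 and 3, against 2.75, 3.38 and 3.13 in EpCAM+ replicates 1, 2 and 3, and was too low to be tested. Muc2 and Muc5b were thus low in all libraries, between the same flanking genes as Muc6 and Muc5ac. Of the 6 other tested genes around the group, 2 were lower and 1 higher in EpCAM- cells and 3 did not pass in limma. Among all tested genes 23.1% were lower and 20.3% higher. Ap2a2, an adaptor subunit of clathrin coats that ends next to Muc6, had a log2 fold change of 0.05 ± 0.17 (SE, limma adjusted p = 0.833). Tollip, an adaptor of innate immune signalling next to Muc5b, had -0.48 ± 0.14 (SE, adjusted p = 0.0263).

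Around Muc4 and Muc20, 6 other genes were tested, of which 1 was lower and 2 higher in EpCAM- cells. The kinase gene Tnk2, on the Muc4 side, had a log2 fold change of -0.43 (limma adjusted p = 0.0430), and the autophagy regulator Rubcn, on the Muc20 side, had 0.10 (adjusted p = 0.585). Around Muc1, 22 other genes were tested, of which 8 were lower, 7 higher and 7 did not pass. For both places the shares among all tested genes were 23.1% lower and 20.3% higher. Thbs3, the gene of a secreted thrombospondin upstream of Muc1, rose by 2.34 ± 0.45 (SE, limma adjusted p = 0.00579). Mtx1, a mitochondrial import gene that overlaps Thbs3 on the opposite strand, so that their reads cannot be told apart for certain, rose by 0.43 ± 0.11 (SE, adjusted p = 0.0215). On the downstream side Trim46, which lies next to Muc1, had -0.36 and did not pass (adjusted p = 0.188). Further downstream the ephrin genes Efna1, Efna3 and Efna4 fell, by 1.06 for Efna1, and Adam15, a membrane protease gene, rose to 282% of its EpCAM+ level. Called genes around Muc1 thus lay on both sides of 0, as did called genes among all those tested.

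**Figure D4:**
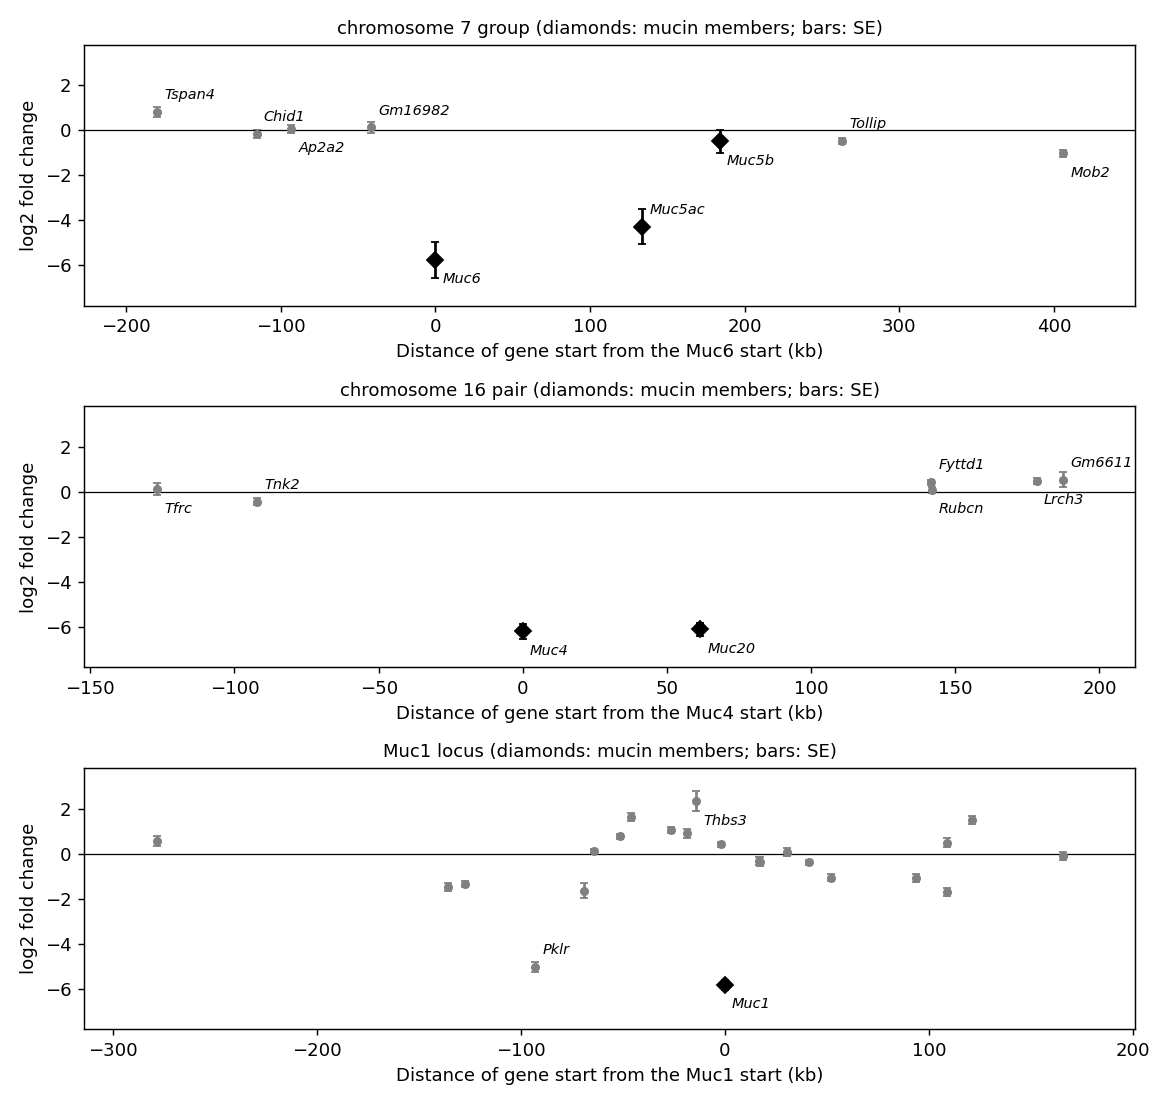
Log2 fold change of EpCAM- over EpCAM+ with its standard error (y axis) for tested genes against the distance of their start from that of Muc6, Muc4 or Muc1 in kb (x axis), with mucins as black diamonds. Muc6, Muc5ac, Muc4, Muc20 and Muc1 lie below the other genes of their panels, of which Pklr, near Muc1, comes closest at -5.03.

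Other mucins and mucin-like genes moved in part with the 8. Of 16 listed, 11 were matched in the table and 7 tested. In limma 4 were lower, 1 higher and 2 did not pass, with a median log2 fold change of -2.17. Among all tested genes 23.1% were lower and 20.3% higher. Mucl3, a mucin-like surface gene, was at 3.68, 3.62 and 3.54 (log2) in EpCAM- replicates 1, 2 and 3, against 8.57, 8.26 and 8.73 in EpCAM+ replicates 1, 2 and 3, and fell by 4.91. Muc3a, a membrane mucin of the intestine, fell by 4.37. Muc3 had a log2 fold change of -2.17 (limma adjusted p = 0.0300) and did not pass in 5 of the 6 fits with 1 library left out, all but that without EpCAM+ replicate 1 (adjusted p of 0.0653 to 0.0992). Both passed the filter only through EpCAM+ libraries. Muc3 and Muc3a are related neighbours whose reads could be shared, so their values are uncertain. Parm1, a mucin-like membrane protein gene, fell by 2.80. Ovgp1, the oviduct glycoprotein, was the member that rose, by 1.43 ± 0.24 (SE, limma adjusted p = 0.00280). The endolysosomal sialomucin Cd164 (-0.42) and the adhesion molecule Mcam (0.40) did not pass. Muc15, Muc19 and the endothelial sialomucin Emcn were too low to be tested, and Muc12, Muc17, Muc21, Mucl1 and Mucl2 were not analysed here.

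Genes of mucus granules, mucin folding and the trefoil peptides fell with the mucins. Of 17 tested, 15 were lower, 0 higher and 2 did not pass in limma, with a median log2 fold change of -3.13. Among all tested genes 23.1% were lower and 20.3% higher. At an unadjusted p under 0.05 in limma the counts in this list were 15 lower and 0 higher. Of these 17, 3 passed the filter only through EpCAM+ libraries. Agr2, the disulphide isomerase needed for mucin folding, fell by 6.31 ± 0.34 (SE). Tff2, the trefoil peptide packed with Muc6, was at 7.84, 7.70 and 7.35 in EpCAM- replicates 1, 2 and 3, against 13.36, 13.47 and 14.78 in EpCAM+ replicates 1, 2 and 3. Tff1, the trefoil peptide packed with Muc5ac, was at 5.92, 5.32 and 5.50 in EpCAM- replicates and 11.13, 10.93 and 12.12 in EpCAM+ replicates. Both trefoil genes were apart between groups and highest in EpCAM+ replicate 3. Fcgbp, a mucus-associated protein gene, fell by 5.87 and Ern2, the stress sensor of mucous cells, fell by 5.86. The granule regulator Creb3l1 (-0.64, adjusted p = 0.107) and the granule tether Sytl2 (-0.57, adjusted p = 0.138) did not pass.

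Of 21 tested enzymes that build mucin-type O-glycans, 11 were lower, 5 higher and 5 did not pass in limma, with a median log2 fold change of -0.58. Of all tested genes 23.1% were lower and 20.3% higher, so the share of higher enzymes was near that of all genes. Galnt5 passed the filter only through EpCAM+ libraries. Galnt6, which starts O-glycan chains, fell by 5.37 ± 0.26 (SE). The branching enzyme gene Gcnt3 fell by 4.80, Galnt3, another initiating enzyme, fell by 4.33 and Galnt5 fell by 3.01. Galnt1, also an initiating enzyme, was at 14.31, 13.68 and 14.51 in EpCAM- replicates 1, 2 and 3, against 12.97, 12.99 and 12.81 in EpCAM+ replicates 1, 2 and 3. Its EpCAM- level was 237% of the EpCAM+ level (limma adjusted p = 0.00377). The sialyltransferase gene St3gal1 rose by 1.16, the branching enzyme Gcnt1 by 1.11 and Galnt15 by 0.82. C1galt1, which extends the first sugar, fell by 1.02, and its chaperone C1galt1c1 (-0.05, adjusted p = 0.719) did not pass. Without EpCAM- replicate 1, or any 1 of the EpCAM+ replicates, 2 of these enzymes were higher, and 3 without EpCAM- replicate 2.

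Of 14 tested partners and shedding enzymes of surface mucins, 5 were lower, 5 higher and 4 did not pass in limma, beside 23.1% lower and 20.3% higher among all tested genes. The galectin Lgals4 fell by 5.95, the receptor gene Erbb3 fell by 5.28 and the adhesion molecule Icam1, a ligand of MUC1 in human, fell by 2.43. Erbb2, the partner of Muc4, was at 9.78, 9.71 and 9.97 in EpCAM- replicates 1, 2 and 3, against 11.80, 11.71 and 11.66 in EpCAM+ replicates 1, 2 and 3. It fell by 1.90 (SE 0.11, limma adjusted p = 1.98e-05). The galectin Lgals1 rose by 2.30, and the shedding proteases Adam17, Adam10, Adam9 and Mmp14 rose by 0.75, 0.60, 0.53 and 0.52. Without EpCAM+ replicate 2, or without EpCAM+ replicate 3, 3 genes of the list were higher. The MUC1-binding galectin gene Lgals3 (0.12, adjusted p = 0.605), Met (0.10, adjusted p = 0.681) and Egfr (-0.70, adjusted p = 0.0826) did not pass.

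Of 17 tested transcription factors linked to mucin genes, 11 were lower, 2 higher and 4 did not pass in limma. Their median log2 fold change was -1.49. Among all tested genes 23.1% were lower and 20.3% higher. Of these 17, 1 passed the filter only through EpCAM+ libraries. The epithelial Ets factor Ehf fell by 6.28 and its relative Elf3 fell by 6.02. Spdef, the factor of mucous cell differentiation, was at 3.94, 3.81 and 4.65 in EpCAM- replicates 1, 2 and 3, against 8.96, 8.64 and 9.49 in EpCAM+ replicates 1, 2 and 3, and fell by 4.90. Hnf4a, a nuclear receptor of gut and liver epithelium, fell by 4.94, and the forkhead factor Foxa3 fell by 4.46. Hif1a, the hypoxia factor, rose by 0.97 and Klf4 by 0.82. Without EpCAM- replicate 2, EpCAM+ replicate 2 or EpCAM+ replicate 3, 1 of the factors was higher. Pdx1, Gata4, Stat3 and Creb1 did not pass, with log2 fold changes between -0.13 and 0.18.

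**Figure D5:**
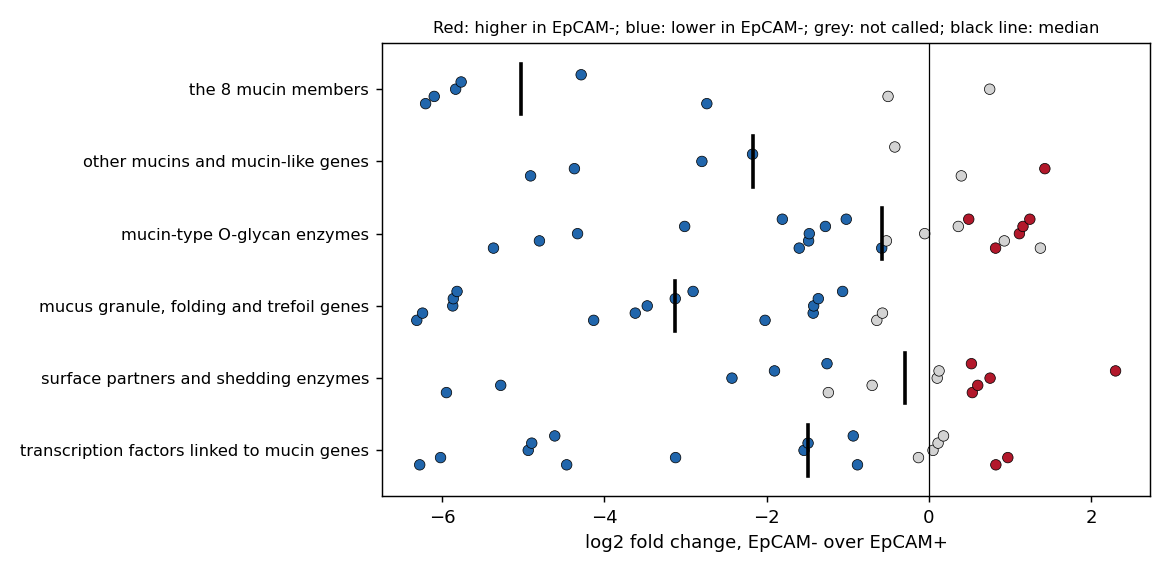
Log2 fold change of EpCAM- over EpCAM+ (x axis) of each tested gene in the 8 mucins and 5 lists of related genes (y axis), blue where lower and red where higher at an adjusted p under 0.05, with black lines at the medians. The mucus granule list lies wholly below 0, with a median of -3.13, while the O-glycan enzymes and the surface partners lie on both sides.

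Across the 6 libraries, each mucin was compared with the mean of the other 7. The Pearson correlation was between 0.95 and 0.99 for Muc1, Muc4, Muc5ac, Muc6, Muc13 and Muc20, 0.46 for Muc5b and -0.63 for Muc16. The points share the libraries and fall into 2 groups, so these values mainly restate the group difference and carry no p. Of 11524 genes with a mean of at least 100, 59 had a correlation of at least 0.99 with the mean of the 8 mucins. Mucins with a mean of at least 100 were not left out of this count. The highest outside the family were Recql5, a DNA helicase gene, Chd9, a chromatin remodeller gene, Hyal1, a hyaluronidase gene, Abca3, a lipid transporter gene, and St8sia6, a sialyltransferase gene, with correlations of 0.997 to 0.998. Their own log2 fold changes were -0.50, -3.26, -2.65, -1.25 and -3.89 in that order, so the likeness is one of shape across libraries and not of size.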

How the data were processed

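RNA of sorted YFP-positive cells was measured in 6 libraries, 3 EpCAM- and 3 EpCAM+, from an mRNA library kit and Illumina sequencing, per the labels' protocols. The genotype is not reported in full here. The submitters' processing notes name GRCm38, RSEM, STAR 2.5.2 and DESeq2 1.24.0, without role or order. The deposited values are log2 levels normalised between libraries by the authors, with a transform, annotation and strand setting not given in the sources used here. They ran from -1.52 to 20.05 and hold no counts, so depth per library is unknown, no counting interval is given, and no count test was run.

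Symbols, coordinates and exon lengths came from GENCODE M21 (GRCm38), which matched 25831 of 25978 identifiers. Genes averaging 10 or more after back-transformation were tested on the deposited scale with limma 3.58.1 in R 4.3.3 (trend in the prior variance, no covariate), two-sided, with Benjamini-Hochberg adjustment over all 15783 tested genes. Fold changes are EpCAM- minus EpCAM+. With 3 libraries a group, an exact permutation test cannot go below 0.1 and was not used. The fit was tested on simulated data. The members and lists were chosen with earlier results of these data known. All 8 mucins are named, and from each list up to 4 called genes in each direction and genes with a known link to a mucin; further list genes were named after their values were seen. Promoter words were searched on both strands of 250 bases before RefSeq starts. Alternatives were log2(value + 1) and log2(value + 5), no filter or a mean of 50, the TMM formula, upper quartile and quantile scaling, a replicate block, weights per library, each library left out and a log2 fold change of at least 1. Leaving out EpCAM+ replicate 1 with EpCAM- replicate 3, and the longest transcript as length, were added after seeing the data.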

Additional observations from a re-analysis of the deposited data

How the results depend on the processing

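Over 17 alternatives to the main test, between 5 and 6 mucins were lower in EpCAM- cells; the count of 5 is that of the filter at a mean of 50, which leaves out Muc5b, Muc13 and Muc16. The log2 fold changes kept their direction in every alternative in which a mucin was tested. The number of higher mucins was 1 after quantile normalisation and 1 with the replicate block, and 0 to 1 with each library left out, in each case Muc16. Its log2 fold change was 1.05 after quantile normalisation, 0.75 with the replicate block (adjusted p = 0.0499), and 0.49 to 1.04 with each library left out. It was 0.38 without EpCAM+ replicate 1 and EpCAM- replicate 3, a pair chosen after seeing the data. Same-numbered libraries deviated together for numbers 1 and 3 (correlations of 0.41 and 0.16) but not for number 2 (0.04), and neither EpCAM- replicate 2 nor 3 correlated best with its own number, so the numbers were not taken to pair the samples. With the block 7090 genes were called, against 6850 without. At a minimum log2 fold change of 1, 1284 genes were lower and 581 higher, against 3653 and 3197. Under that minimum the O-glycan enzymes had 6 lower and 0 higher, the partners 1 higher, the factors 7 lower and 0 higher, and the other mucins 0 higher. With each library left out, 2 to 4 O-glycan enzymes, 3 to 5 partners and 1 to 2 factors were higher. Without EpCAM+ replicate 1 and EpCAM- replicate 3, 3 O-glycan enzymes and 3 partners were higher, and 1907 genes in all. The cause of these shifts was not tested. The order per kb used exon length; with the longest transcript each level moved by less than 1 SD. The protein length planned as another measure was not run. The unknown depth gives no measure of the precision of low levels, such as those of Muc13 and Muc20 in EpCAM- libraries.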

Other observations

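Around Muc13, 5 other genes were tested, of which 2 were lower, 1 higher and 2 did not pass in limma. Among all tested genes 23.1% were lower and 20.3% higher. Near Muc1 and Muc13, single genes of unrelated function also fell steeply. Pklr, the pyruvate kinase gene of liver and red cells, which starts at -92.9 kb from the Muc1 start, fell by 5.03 ± 0.21 (SE, limma adjusted p = 7.21e-06). Slc12a8, a solute carrier gene that ends within 150 kb of Muc13, fell by 5.85 ± 0.20 (SE, adjusted p = 5.40e-06), more than Muc13 itself at -2.74. Both were named after their values were seen.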
